A study of Mus musculus with 384 samples.

Results

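The genes of the tumor necrosis factor (TNF) superfamily named by the Tnfsf and Tnfrsf symbols were examined in the accessible chromatin of a mouse breast tumor. They were all protein-coding genes of the GENCODE vM1 annotation whose symbol begins with Tnfsf or Tnfrsf followed by a digit, which gave 31 of 22238 protein-coding genes, 11 ligands and 20 receptors. The tumor came from an MMTV-PyMT mouse, in which a mammary-directed promoter drives the polyoma middle T oncogene, and mice of this kind were killed at 3 months of age. Tissue was fixed by perfusion with paraformaldehyde, and dissociated cells received antibodies to EpCam, which epithelial cells use for adhesion, and to CD45, a phosphatase on the surface of leukocytes. They were profiled by Pi-ATAC, called MI-ATAC in the labels, a single-cell assay in which a transposase tags open DNA in stained cells. In the paper, the cells that passed its filter were EpCAM+ or CD45+. The CD45+ share among them was larger than among all stained cells, so the windows need not reflect the make-up of the tumor. The wells, 96 on each of 4 plates, carry the same labels, with no stain result per well, so they form 1 group without replicates.

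The processed data were 50000 windows of 500 bp, called on all cells together in build mm9, with a position and a name but no read count or score. A window is therefore either in the list or not, and its height, its depth and the share of cells that carried it are unknown. A gene without a window had none among the 50000 that the authors kept, which does not show that its chromatin was closed. Fewer cells of a type and less open chromatin per cell cannot be told apart in such a list, and no window can be ascribed to EpCAM+ or CD45+ cells. Leukocyte and epithelial marker genes both had windows within 50 kb, in 4 of 4 genes each. Promoter windows were present at 3 of 4 leukocyte markers (Coro1a, Laptm5 and Spi1, but not Ptprc, the gene of CD45) and at 1 of 4 epithelial markers (Cdh1, but not Epcam, Krt8 or Krt18). Over all protein-coding genes, 43.5% had a promoter window and 84.5% a window within 50 kb. With exact 95% intervals of 19.4% to 99.4% and 0.631% to 80.6%, neither marker list could be told apart from that promoter share or from the other list.

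TNF superfamily ligands are mostly trimeric membrane proteins, some of which are shed, and their receptors signal on binding them. Receptors with a death domain can recruit adaptors that activate caspases, receptors with TRAF-binding motifs act largely through NF-kB and MAP kinases, and decoy receptors bind ligand without passing on a death signal. In tumors the family is best known for costimulation of T cells, survival of B cells, death of transformed cells and inflammatory signalling between macrophages and other cells.

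The sequences below show what lay under accessible windows whose nearest protein-coding start site was that of a TNF superfamily gene, at a word of AP-1 or NF-kB, which are factors downstream of these receptors. The AP-1 word was TGACTCA, which reads TGAGTCA on the other strand, and the NF-kB word was the consensus of that family, both searched on either strand. Stretches of up to 150 bases are printed 5′ to 3′ in the direction of the gene, from the NCBIM37 genome (mm9), with the word in capitals. A match is a description of the letters and not evidence that a factor was bound. At Tnfsf13b the AP-1 word lay 0.334 kb upstream of the start site, at chr8:10006443-10006592 on the plus strand.
Tnfsf13b: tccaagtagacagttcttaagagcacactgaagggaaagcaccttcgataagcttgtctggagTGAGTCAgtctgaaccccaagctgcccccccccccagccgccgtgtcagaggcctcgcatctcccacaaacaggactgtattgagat
At Tnfsf10 it lay 5325 bp into the gene, in an intron, at chr3:27221276-27221425 on the plus strand.
Tnfsf10: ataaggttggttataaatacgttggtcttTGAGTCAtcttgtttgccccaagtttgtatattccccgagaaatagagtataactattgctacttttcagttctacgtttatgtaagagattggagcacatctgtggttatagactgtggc
At Tnfsf14 it lay 7549 bp upstream, between genes, at chr17:57341100-57341249 on the minus strand.
Tnfsf14: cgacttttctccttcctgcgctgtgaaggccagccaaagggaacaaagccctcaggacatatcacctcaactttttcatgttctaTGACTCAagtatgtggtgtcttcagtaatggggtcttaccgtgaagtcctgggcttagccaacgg
At Tnfsf4 an NF-kB word lay 8134 bp upstream, between genes, at chr1:163317373-163317522 on the plus strand.
Tnfsf4: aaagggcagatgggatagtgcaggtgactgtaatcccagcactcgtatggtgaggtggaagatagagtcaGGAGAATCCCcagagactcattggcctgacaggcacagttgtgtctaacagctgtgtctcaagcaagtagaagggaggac
At Tnfrsf1b an AP-1 word lay 636 bp downstream of the start site, at chr4:144836070-144836219 on the minus strand.
Tnfrsf1b: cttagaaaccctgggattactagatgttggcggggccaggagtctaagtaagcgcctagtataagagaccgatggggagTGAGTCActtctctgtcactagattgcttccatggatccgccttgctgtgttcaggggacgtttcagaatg
An NF-kB word of the same gene lay 12819 bp downstream, in an intron, at chr4:144823880-144824029 on the minus strand.
Tnfrsf1b intron: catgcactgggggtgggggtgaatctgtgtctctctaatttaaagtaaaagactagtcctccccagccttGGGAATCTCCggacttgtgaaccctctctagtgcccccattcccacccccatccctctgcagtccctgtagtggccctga
At Tnfrsf9 an NF-kB word lay in an intron, 2299 bp downstream of the nearest of its 8 annotated start sites, at chr4:150296524-150296673 on the plus strand.
Tnfrsf9: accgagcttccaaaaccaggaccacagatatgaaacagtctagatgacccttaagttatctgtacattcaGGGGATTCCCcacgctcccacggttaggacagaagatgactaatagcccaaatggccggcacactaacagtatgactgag
An AP-1 word lay 964 bp upstream of another start site inside that gene, at chr4:150298377-150298526 on the plus strand.
Tnfrsf9 internal: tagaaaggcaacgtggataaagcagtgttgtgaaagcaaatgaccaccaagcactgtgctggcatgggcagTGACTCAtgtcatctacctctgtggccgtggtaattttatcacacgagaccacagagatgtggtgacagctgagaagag
At Tnfrsf23 the AP-1 word lay 47 bp downstream of the start site, at chr7:150871656-150871761 on the minus strand. It lay inside the gene past an annotated untranslated region, and the printed stretch starts where that region ends, with atg.
Tnfrsf23: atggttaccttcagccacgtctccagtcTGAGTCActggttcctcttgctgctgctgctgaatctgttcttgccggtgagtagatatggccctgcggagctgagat
The Tnfsf13b, Tnfsf10, Tnfrsf1b and Tnfrsf23 words were read as TGAGTCA and the Tnfsf14 and Tnfrsf9 words as TGACTCA in the direction of the gene.

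Promoter windows, defined as windows centred within 1 kb of any annotated start site of the gene, were present at 10 of the 31 genes (32.3%, exact 95% interval 16.7% to 51.4%). Of all protein-coding genes, 43.5% had a promoter window, so the share in the family was not above the background. Ligands had such a window in 5 of 11 cases (45.5%, interval 16.7% to 76.6%) and receptors in 5 of 20 (25.0%, interval 8.66% to 49.1%). The 5 ligands were Tnfsf9, Tnfsf10, Tnfsf11, Tnfsf13b and Tnfsf18, and the 5 receptors were Tnfrsf1a, Tnfrsf1b, Tnfrsf9, Tnfrsf21 and Tnfrsf23. The 2 intervals overlap widely, and no test was run, because genes are not replicates of a condition.

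At least 1 window within 50 kb was found at 29 of the 31 genes, against 84.5% of all protein-coding genes. The 2 genes without any were Tnfsf15, the ligand of Tnfrsf25, and Tnfrsf11b, which encodes the soluble RANKL decoy osteoprotegerin. Their nearest windows lay 76502 bp and 292851 bp from the start site. The median number of windows per gene was 3 for ligands (range 0 to 9), 6 for receptors (range 0 to 27) and 3 for all protein-coding genes (range 0 to 52).

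The higher receptor median rested on chromosome 4, and its direction depended on how windows were assigned. Of the 20 receptors, 7 lie on chromosome 4 (Tnfrsf1b, Tnfrsf4, Tnfrsf8, Tnfrsf9, Tnfrsf14, Tnfrsf18 and Tnfrsf25), and these had 72 distinct windows, 63.2% of those near receptors, with 42 near the rest. Their median was 10, against 3 for the 13 receptors on other chromosomes and 3 for the 1345 protein-coding genes of chromosome 4. Without chromosome 4 the ligand median was also 3. When a window was counted only for the gene with the nearest protein-coding start site, the order turned, with a median of 2 for ligands and 1 for receptors, beside 1 for all genes. Receptors had a median of 2 other protein-coding genes with a start site within 50 kb, ligands 0, and the part of these neighbours in the difference was not tested.

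**Figure D1:**
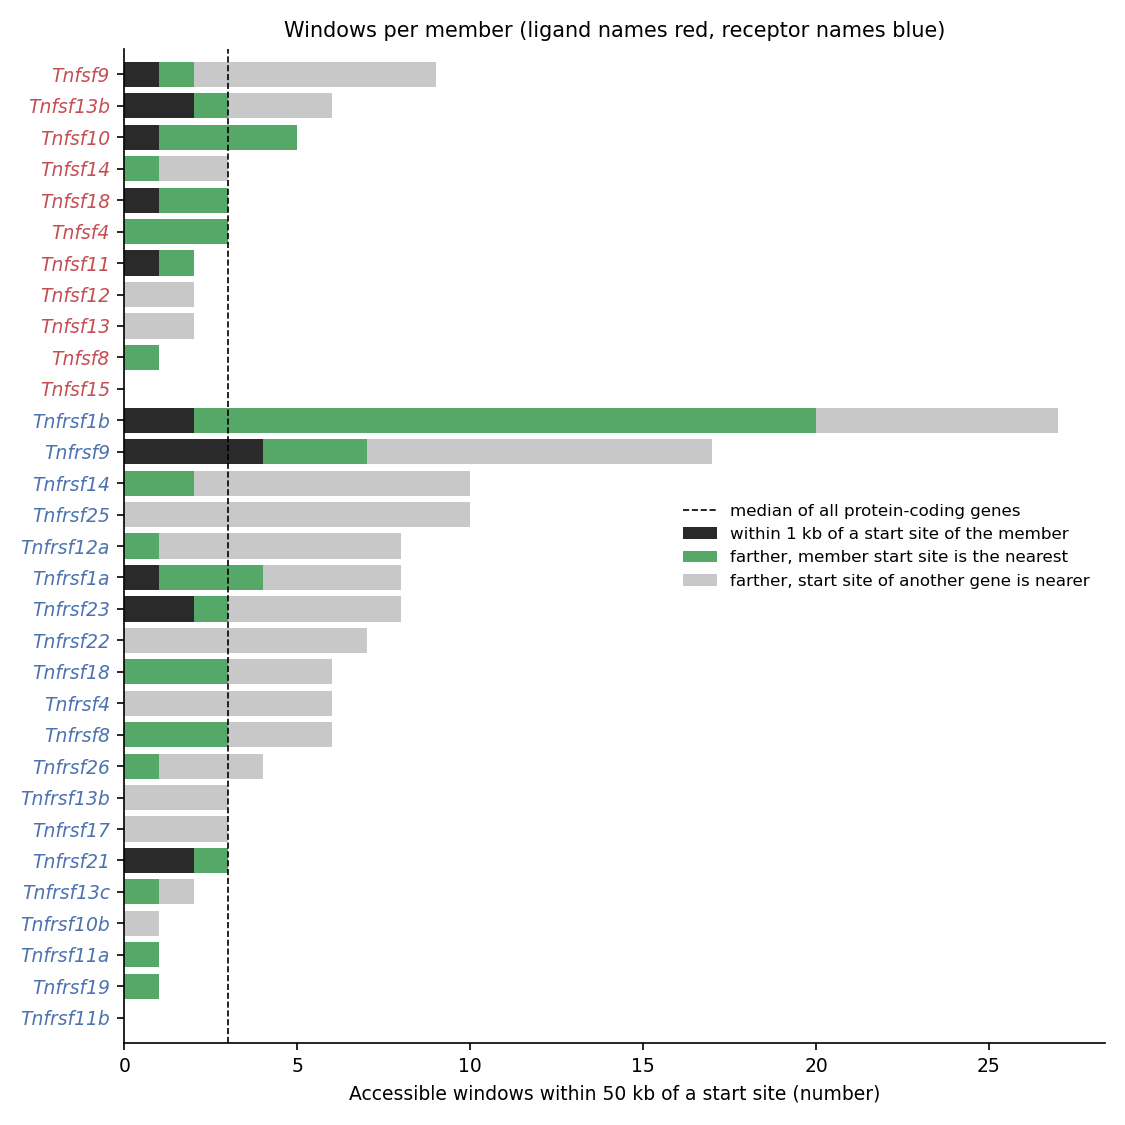
Number of accessible windows within 50 kb of a start site for each of the 31 genes, as bars split by whether the window was within 1 kb of a start site of the gene, farther away with that gene as the nearest, or farther away with another gene nearer. Tnfrsf1b (27 windows) and Tnfrsf9 (17) exceed all other members, and the bars of Tnfsf12, Tnfsf13, Tnfrsf25, Tnfrsf4, Tnfrsf22, Tnfrsf13b, Tnfrsf17 and Tnfrsf10b consist of windows nearer to another gene.

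**Figure D2:**
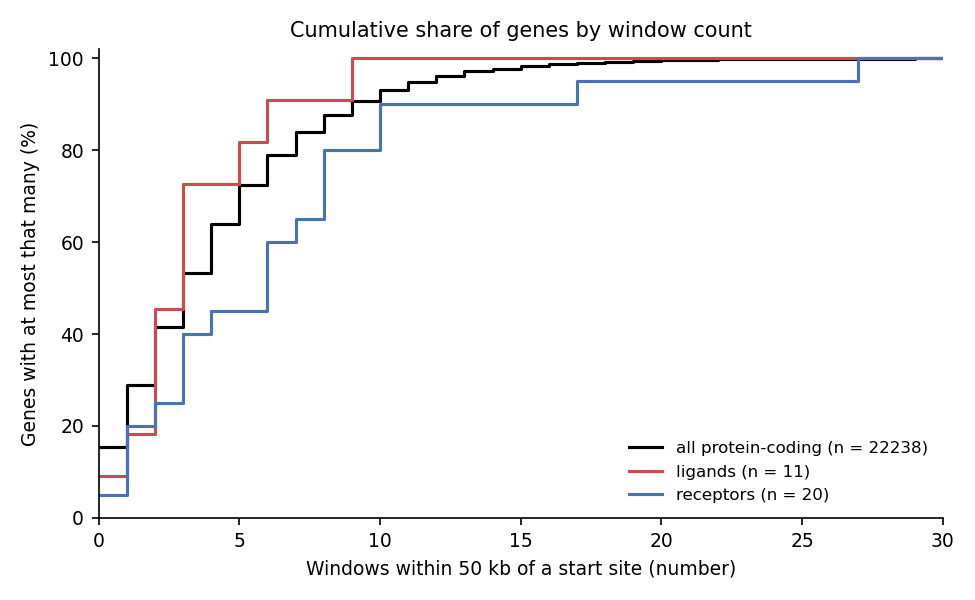
Cumulative share of genes (%) against the number of windows within 50 kb, for 11 ligands, 20 receptors and 22238 protein-coding genes. The receptor line runs below the line of all genes from 0 windows up to 26, and the ligand line reaches 100% at 9 windows.

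Among ligands, Tnfsf9 had the most windows. Tnfsf9 encodes 4-1BBL, a costimulatory ligand of antigen-presenting cells, and had 9 windows within 50 kb. A window lay 37 bp downstream of its start site. Another, 8708 bp upstream in an intron of Gm11110, had the Tnfsf9 start site as its nearest. The others were nearer to Crb3, Slc25a23, Dennd1c and Gm11110, and 3 of them were promoter windows of another gene. Tnfsf13b encodes BAFF, a survival factor of B cells released mainly by myeloid cells, and had 6 windows. Promoter windows lay 150 bp upstream and 706 bp downstream of its start site, and another window lay 16147 bp downstream in an intron with a RUNX word (TGTGGTT). The other 3 were nearest to Lig4 or Abhd13, at promoters in 2 cases. Tnfsf13b lies on chromosome 8, a chromosome with a higher share of kept peaks (given below for chromosomes 7, 8, 9 and X).

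Tnfsf10 encodes TRAIL, which can trigger apoptosis of transformed cells, and had 5 windows, with its start site the nearest protein-coding one to each. The window at its promoter was centred 6 bp upstream of the start site and the one in its own intron 5543 bp downstream. The remaining 3 were 25426, 46469 and 49453 bp upstream, and those at 46469 and 49453 bp lay in introns of Nceh1. The window in the Tnfsf10 intron held both an AP-1 and a RUNX word. No other protein-coding start site lay within 50 kb of Tnfsf10, Tnfsf18, Tnfsf4, Tnfsf8, Tnfsf11 or Tnfsf15.

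The costimulatory ligands Tnfsf18 (GITRL) and Tnfsf4 (OX40L), which are neighbours on chromosome 1, had 3 windows each and shared none. Tnfsf18 had a window 550 bp downstream of its start site, 1 at 14606 bp upstream with 2 RUNX words, and 1 at 21991 bp downstream. The window closest to the Tnfsf4 start site lay 1261 bp downstream, in an intron and just outside the promoter limit, and the others lay 8067 bp upstream and 48682 bp downstream. Tnfsf14 encodes LIGHT, a ligand of activated T cells, and also had 3 windows, all upstream, at 7738, 25203 and 37453 bp. The far pair had C3, the complement gene, as the nearest start site, and each held an NF-kB word.

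Few windows lay near the remaining ligands. Tnfsf11 encodes RANKL, the osteoclast differentiation factor that also acts in mammary epithelium, and had a promoter window at 210 bp downstream and another window at 22690 bp upstream. Tnfsf12 (TWEAK) and Tnfsf13 (APRIL) are adjacent on chromosome 11 and shared both of their windows, which were promoter windows of Senp3 and Eif4a1. Neither window was counted for them by nearest start site. Tnfsf8 (CD30L) had 1 window, 38357 bp upstream.

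The death-domain receptors had promoter windows in 2 of 4 genes (50%, interval 6.76% to 93.2%) and a median of 5.5 windows. That interval holds the 43.5% of all protein-coding genes, which had a median of 3 windows. Tnfrsf1a encodes the broadly expressed TNF receptor 1 and had 8 windows. For 4 of these its start sites were the nearest, at 29, 1401, 2547 and 5417 bp downstream of the nearest annotated one. Those at 2547 and 5417 bp lay past the end of the gene, in introns of Plekhg6. The window at 17824 bp, also in an intron of Plekhg6, held both an AP-1 and an NF-kB word. Tnfrsf21 (death receptor 6) had 3 windows with itself as the nearest gene, at 42 bp upstream, 622 bp downstream and 38089 bp downstream. Tnfrsf25 (death receptor 3) had 10 windows, and in every case Plekhg5, Espn or Hes2 was nearer. Tnfrsf10b, the TRAIL death receptor of the mouse, had 1 window, 34809 bp upstream at the promoter of Chmp7.

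Tnfrsf1b stood highest of the family. It encodes TNF receptor 2, which lacks a death domain and is expressed on leukocytes, including regulatory T cells and myeloid cells. The gene spans chr4:144803366-144836773 on the minus strand (mm9), with no other protein-coding start site within 50 kb, and its 27 windows within 50 kb ran from 49000 bp upstream to 37584 bp downstream. Among protein-coding genes, 11 had at least as many, itself included, which placed it at percentile 99.96, and on the 16 chromosomes other than 7, 8, 9 and X 3 genes did. Windows nearest to its start site numbered 20, and 23 genes had at least as many by that count.

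The windows of Tnfrsf1b lay along the gene and its upstream flank. Promoter windows were centred 0.164 kb upstream and 453 bp downstream of the single annotated start site, 13 of the 27 lay inside the gene and 11 upstream of it. A run of 6 windows covered the intergenic stretch from 3485 to 11300 bp upstream, and 3 of these held an AP-1 word. Of all 27, 8 held an AP-1 word, 4 a RUNX word and 2 an NF-kB word. The 4 windows farthest upstream lay in introns of Tnfrsf8, which encodes CD30, a receptor of activated lymphocytes, and were counted for both genes. Tnfrsf8 had 6 windows, all inside its own introns, the nearest at 14625 bp from its start site.

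Tnfrsf9, which encodes the T cell costimulatory receptor 4-1BB at chr4:150288671-150320211 on the plus strand, had 17 windows (percentile 98.85 of protein-coding genes), and 52 genes on the 16 chromosomes other than 7, 8, 9 and X had at least as many. Promoter windows numbered 4, near 3 different start sites of the gene. Of these, 1 lay 70 bp downstream of the first start site and another 585 bp upstream of it, the latter nearer to Park7. The other 2 lay inside the gene, 897 bp upstream and 130 bp downstream of internal start sites, and both held an AP-1 word. NF-kB words were found in 2 of the 17 windows, each as a pair of overlapping matches. Of the 17 windows, 6 were nearest to Tnfrsf9 and 6 lay inside the gene. The windows upstream of the first start site had Park7 or Errfi1 as the nearest gene.

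**Figure D3:**
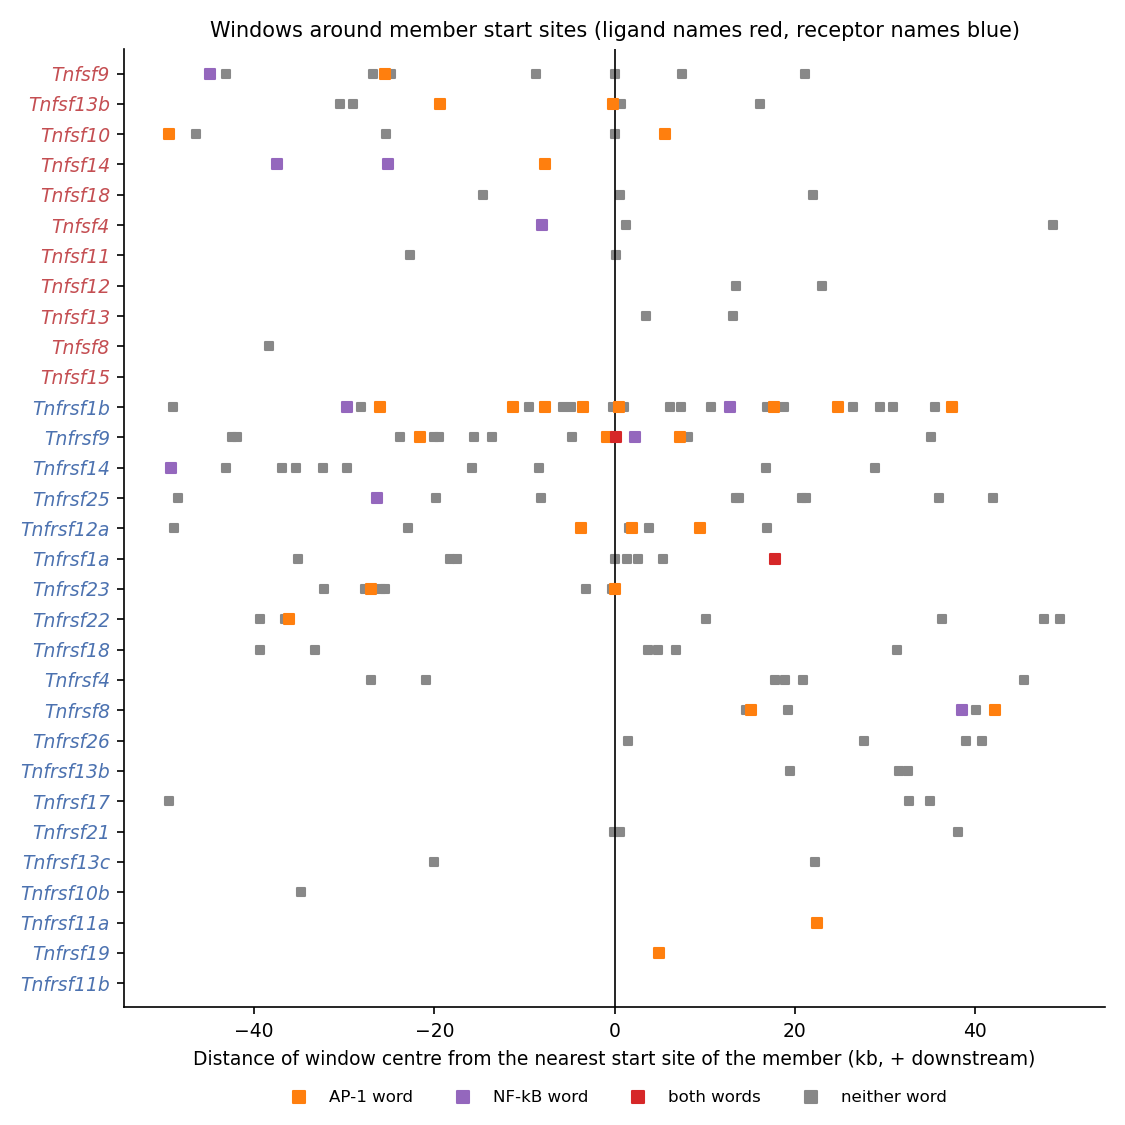
Distance in kb of each window centre from the nearest start site of the gene (positive downstream), 1 row per gene, coloured by the presence of an AP-1 word, an NF-kB word, both or neither. The row of Tnfrsf1b holds windows on both sides of the start site over most of the range, Tnfrsf9 has windows on both sides of 0, and the rows of Tnfsf15 and Tnfrsf11b are empty.

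The other TRAF-binding receptors had no promoter window. Over all 12 receptors of this kind, 2 had a promoter window (Tnfrsf1b and Tnfrsf9) and the median was 6 windows. The interval of that share, 2.09% to 48.4%, also holds the 43.5% of all protein-coding genes and overlaps that of the death-domain receptors. Tnfrsf14 (HVEM, the LIGHT receptor) had 10 windows, of which 2, at 8434 and 15845 bp upstream, were nearest to it, and the others lay around Pank4, Hes5 and 2810405K02Rik. Tnfrsf12a (Fn14, the TWEAK receptor, known for induction in epithelial cells) had 8 windows in a stretch with 8 other protein-coding genes. Its nearest window was centred 1592 bp downstream in an exon near the end of this short gene, and 3 of the 8 held an AP-1 word, 1 of them in an exon of Cldn6. Tnfrsf4 (OX40) and Tnfrsf18 (GITR), costimulatory receptors of T cells that are neighbours on chromosome 4, shared all 6 of their windows. Of these 6, 3 were nearest to Tnfrsf18, from 3730 to 6847 bp downstream, and 0 to Tnfrsf4.

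The B cell receptors of this group had few windows. Tnfrsf13b (TACI) and Tnfrsf17 (BCMA) had 3 windows each and Tnfrsf13c (BAFF receptor) had 2, with the closest at 19455, 32655 and 20067 bp. Of these 8 windows 1 was nearest to the receptor, at Tnfrsf13c. Tnfrsf11a (RANK, the RANKL receptor) and Tnfrsf19 (TROY) had 1 window each inside the gene, 22510 and 4971 bp downstream, and both held an AP-1 word.

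The TRAIL receptor cluster on chromosome 7 holds Tnfrsf22 and Tnfrsf23, decoy receptors described in the mouse, and Tnfrsf26, a related receptor. Tnfrsf23 had 8 windows, 2 of them at its promoter, 44 bp downstream and 0.338 kb upstream of the start site. Tnfrsf22 had 7 windows, with another gene nearer in each case. It shared 3 windows with Tnfrsf23 and 4 with Tnfrsf26, whose own nearest window lay 1542 bp into the gene. On chromosomes 7, 8, 9 and X between 41.5% and 51.8% of called peaks were kept, against 23.6% to 26.5% on the other 16, so window counts there are not on the same footing. Protein-coding genes on those 4 chromosomes had a median of 5 windows and genes on the others 3. The part of this in the counts of the cluster and of Tnfsf13b was not tested, and without the 4 chromosomes 8 of 27 genes had a promoter window and the medians were 2.5 for ligands and 6 for receptors.

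Ligands and their receptors were then set side by side in 12 pairs, with Tnfsf13 in 2 of them. In 1 pair, Tnfsf9 and Tnfrsf9, both genes had a promoter window. The ligand but not the receptor had a promoter window in 4 pairs, namely TRAIL (Tnfsf10 with Tnfrsf10b), RANKL (Tnfsf11 with Tnfrsf11a), BAFF (Tnfsf13b with Tnfrsf13c) and GITRL (Tnfsf18 with Tnfrsf18). The receptor alone had one in 0 pairs, and neither gene did in 7. Every ligand with a promoter window was in a pair. Tnfrsf1a, Tnfrsf1b, Tnfrsf21 and Tnfrsf23, the other receptors with one, were in none, so the 0 largely reflects which pairs were listed. The TRAIL results likewise depend on pairing it with Tnfrsf10b only. Tnfrsf22 and Tnfrsf23 of the TRAIL receptor cluster, which were not paired, had 7 and 8 windows, and Tnfrsf23 had 2 at its promoter. The count within 50 kb was higher at the receptor in 9 pairs and at the ligand in 3, which were TRAIL (5 and 1 windows), RANKL (2 and 1) and BAFF (6 and 2). The widest gaps in the other direction were those of Tnfsf15 and Tnfrsf25 (0 and 10 windows) and of Tnfsf9 and Tnfrsf9 (9 and 17). By nearest start site the ligand stayed higher for TRAIL, RANKL and BAFF, and the receptor for Tnfrsf8, Tnfrsf9, Tnfrsf12a and Tnfrsf14. Pairs of Tnfrsf13b, Tnfrsf17 and Tnfrsf25 then had 0 windows on both sides, and that of Tnfrsf18 had 3 on both. Tnfsf4 had 3 by that count and Tnfrsf4 had 0. Tnfrsf4, Tnfrsf8, Tnfrsf9, Tnfrsf14, Tnfrsf18 and Tnfrsf25 lie on chromosome 4.

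Promoter windows were next compared with the number of CpG dinucleotides in the 500 bp around the start site (the highest number where a gene has several start sites), since CpG-rich promoters are open in most cell types. Over all protein-coding genes in 10 classes of CpG number, the share with a promoter window was 2.21% in the lowest class, 12.8% in the third, 48.9% in the fifth and 71.1% in the eighth. The family was CpG-poor, with medians of 11 in ligands, 23 in receptors and 30 in all genes. Genes of the family with a promoter window had a median of 25 CpG (range 6 to 46) and those without had 15 (range 7 to 63). Tnfsf10, Tnfsf13b and Tnfsf18 had a promoter window with 8, 8 and 6 CpG, in the class where 12.8% of genes did. They were 3 of 7 genes of the family in that class, and Tnfsf13, Tnfsf15, Tnfrsf14 and Tnfrsf26 had none. In the next class 0 of 8 genes of the family had a promoter window, against 23.2% of all genes. Tnfrsf11a, at 63 CpG, had none, in the class where 69.1% of genes did, and Tnfrsf12a, at 37 CpG, had none in a class with 66.3%. Some of these calls rest on the promoter limit, since the Tnfsf18 window at 550 bp is lost at 500 bp and Tnfrsf12a, Tnfrsf26 and Tnfsf4 gain a promoter window at 2 kb.

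**Figure D4:**
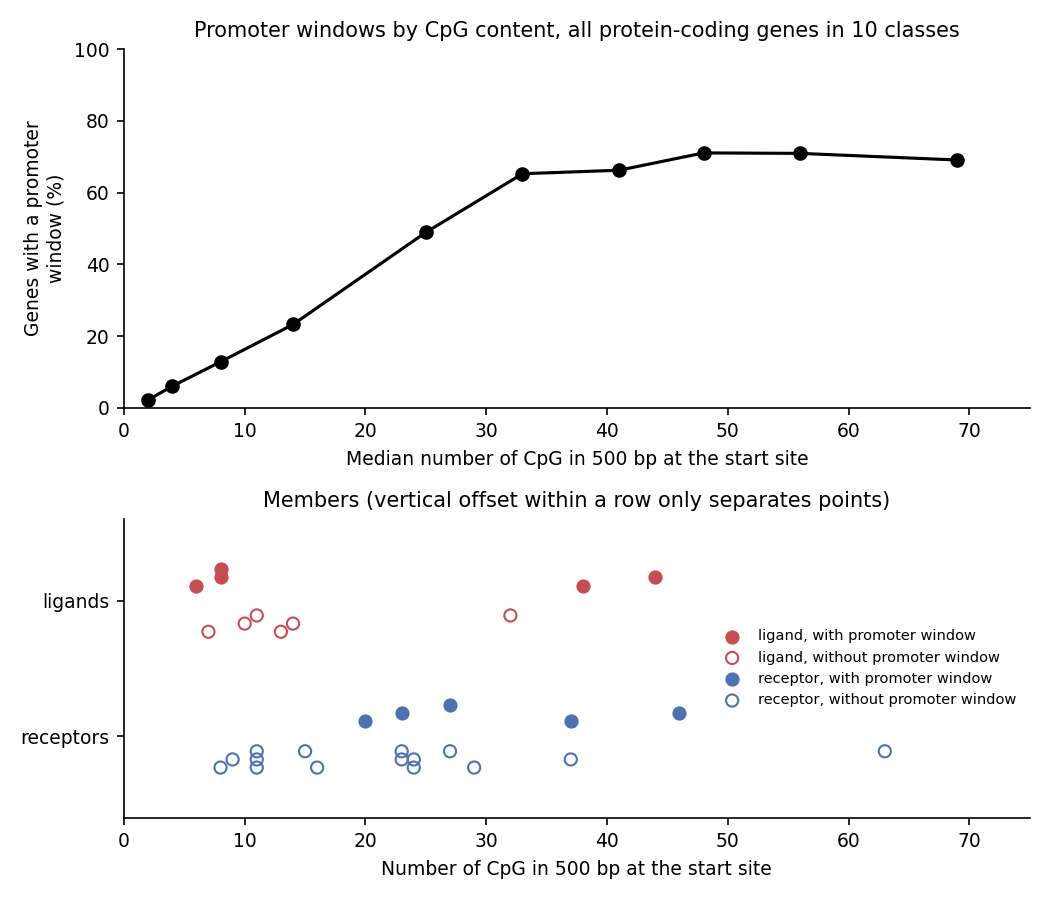
Upper panel, share of protein-coding genes with a promoter window (%) in 10 classes of CpG number, at the median CpG number of each class. Lower panel, CpG number in 500 bp at the start site of each ligand and receptor, filled where a promoter window was present. Ligands with 6, 8 and 8 CpG are filled, and the receptor at 63 CpG, Tnfrsf11a, is open.

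Windows near more than 1 gene were counted once. The distinct windows within 50 kb of the 31 genes were 34 near ligands, 72 near the receptors of chromosome 4 and 42 near the other receptors, with 0 near both a ligand and a receptor and 19 near more than 1 gene of the family. Of these windows, 47 (31.8%) were centred within 1 kb of a start site of any gene, against 26.6% of all windows, and 48 lay in introns, 16 in exons and 37 between genes. Promoters of the family accounted for 17 and promoters of other genes for 29. The latter include that of U1, a gene near Tnfrsf9 that is not protein-coding. The remaining 1 also lay at the start site of a gene that is not protein-coding. It was counted apart because its nearest protein-coding start site, 3730 bp away, was that of Tnfrsf18. The nearest protein-coding start site was a member's for 20 of the 34 ligand windows (58.8%) and for 49 of the receptor windows (43.0%), and 7 and 35 windows lay inside a gene of the family.

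Words of 7 factor families were counted in these windows beside all 50000. The AP-1 word was present in 27 windows of the family (18.2%, exact 95% interval 12.4% to 25.4%), against 13.5% of all windows, which lies inside the interval. The NF-kB word was present in 11 (7.43%, interval 3.77% to 12.9%), against 7.28%. The RUNX word was present in 20 (13.5%), against 11.6%. The STAT word (TTCNNNGAA) was present in 17 (11.5%), against 13.1%. The PU.1 word (GAGGAAGT) was present in 5 (3.38%), against 4.96%, and the Ets word (CCGGAAGT) in 5 (3.38%), against 2.49%. The GC box (GGGCGG) was present in 53 (35.8%, interval 28.1% to 44.1%), against 25.5% of all windows, which lies below the interval. These intervals take windows as independent and may be too narrow, since windows cluster at few genes. For example, 27 lay near Tnfrsf1b (4 with a GC box) and 10 near Tnfrsf25 (7 with a GC box). Member windows had a median GC content of 52.4%, against 49.8% for all windows, and the part of this in the GC box share was not tested. In the central 200 bp of each window the GC box was in 16.2% of the family's windows and 16.1% of all, so the difference was not seen there. Among windows within 1 kb of any start site it was in 34 of the family's 47 (72.3%, interval 57.4% to 84.4%) and 64.3% of all. Farther than 1 kb from start sites it was in 18.8% of the family's windows (interval 11.7% to 27.8%) and 11.5% of all. There the share of all windows lies just below the interval.

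The intervals of ligand and receptor windows overlapped for each of the 7 words. The NF-kB word was in 4 of 34 ligand windows (11.8%, interval 3.30% to 27.5%) and 7 receptor windows (6.14%, interval 2.50% to 12.2%). The RUNX word was in 7 of 34 (20.6%, interval 8.70% to 37.9%) and 13 receptor windows (11.4%, interval 6.21% to 18.7%), and the AP-1 word in 6 of 34 (17.6%) and 21 receptor windows (18.4%). Over 1 kb from any start site, the AP-1 word was in 22 windows of the family (21.8%, interval 14.2% to 31.1%) and 15.6% of all such windows. Of the 27 windows with an AP-1 word, 8 lay near Tnfrsf1b.

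**Figure D5:**
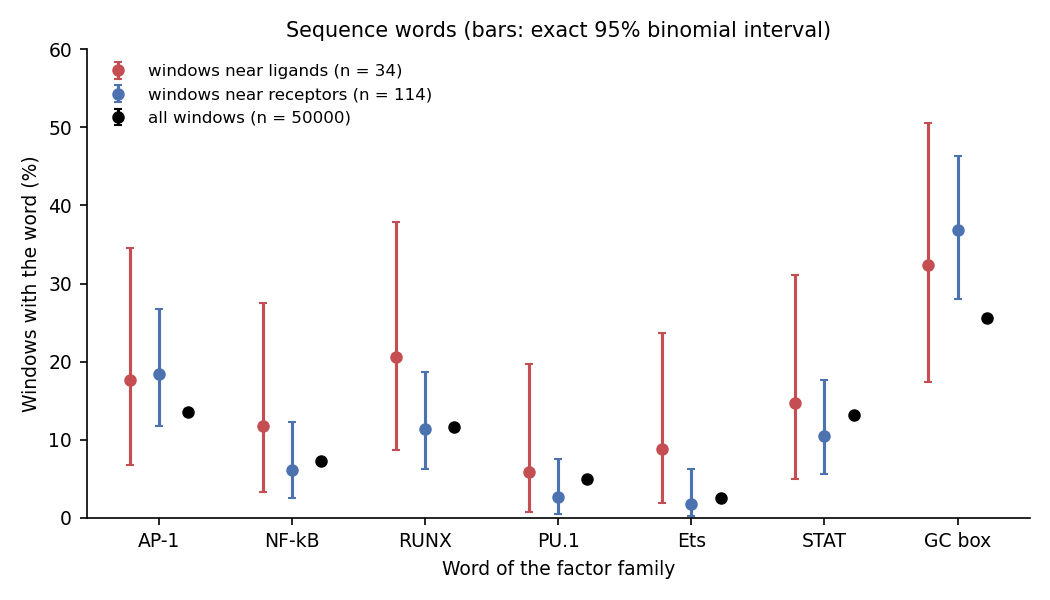
Share of windows (%) with each word among the windows near ligands, the windows near receptors and all 50000, with bars for the exact 95% binomial interval. The ligand and receptor intervals overlap for each of the 7 words.

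Other genes of the pathway, listed by name, were compared last. Ligands of the superfamily with other symbols had a promoter window in 1 of 6 genes (Eda, of ectodermal development), with an interval of 0.421% to 64.1% that holds the 43.5% of all protein-coding genes. Tnf, Lta and Ltb, which lie side by side in the major histocompatibility region, had the same 7 windows within 50 kb and no promoter window. Cd40lg and Cd70, ligands of activated lymphocytes, had 3 windows each. Receptors with other symbols had a promoter window in 5 of 8 genes, namely Fas, a death receptor, Cd40, a receptor of B cells and antigen-presenting cells, Cd27, a T cell costimulatory receptor, Ltbr, the lymphotoxin beta receptor, and Relt. The interval of that share, 24.5% to 91.5%, also holds 43.5%. Ngfr, Edar and Eda2r had none.

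Adaptors and signalling genes downstream of the receptors had a promoter window in 13 of 15 genes (86.7%, interval 59.5% to 98.3%), against 43.5% of all protein-coding genes, and a median of 8 windows. The list was chosen with earlier results of these data known, so its interval is descriptive only. The 15 genes had a median of 44 CpG at the start site, a content at which promoter windows are common. The share in the eighth class was 71.1%, which lies inside that interval. The part of CpG content in the share of the 15 genes was not tested. Traf1, an NF-kB-inducible adaptor, had 3 promoter windows and Traf5 had 10 windows within 50 kb. Fadd and Casp8, which pass on death signals, and Cflar, which restrains them, each had a promoter window. The 2 without were Traf4 and Birc2. Counts were highest for Cyld (17), a deubiquitinase that restrains NF-kB, Tradd (16), a death-domain adaptor, Birc2 (13) and Birc3 (12), inhibitor-of-apoptosis ligases, all 4 on chromosomes 8 and 9. Birc2 and Birc3 are neighbours that shared 10 of these windows and had 15 distinct windows between them.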

How the data were processed

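Cells of the tumor were measured by Pi-ATAC. Following adapter trimming, the authors aligned reads to mm9 (Bowtie2 2.1.0), removed low-quality and mitochondrial reads and duplicates (Picard 1.79), aggregated the cells and called summits with MACS2 (version not given in the sources used here; q 0.05). The deposited values (unit other) are positions and names of 50000 windows of 500 bp, without scores, so depth is unknown. The authors describe these as the peaks with the lowest q. That could not be checked without scores, and the kept share differed between chromosomes 7, 8, 9 and X and the others.

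The members and lists were chosen with earlier results of these data known. Windows were placed by their centre against GENCODE vM1 start sites, genes being keyed by symbol and chromosome, with the NCBIM37 sequence of the same build. Window positions are counted from 1. Tnfrsf22 has 2 Ensembl identifiers, treated as 1 gene. Shares carry exact (Clopper-Pearson) 95% intervals, which cover counting error only, and no test was run. Intervals for words take windows as independent, though many lie close together. All members are named, and the 4 ligands and 6 receptors with most windows (ties kept) are described in more detail. For some of these receptors only a part of the windows is placed. Sequences of these ligands and receptors were taken at their AP-1 or NF-kB word nearest the start site, outside untranslated regions. Of these, the words in windows nearest to a member are printed. Alternatives changed the promoter distance, reach, start sites, overlap, assignment and chromosomes. The procedure was checked on simulated windows. The software was pandas 2.3.3, numpy 2.4.6 and scipy 1.17.1 under Python 3.11.15, with figures by matplotlib 3.10.9.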

Additional observations from a re-analysis of the deposited data

How the results depend on the processing

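Counts depended on the reach and on the assignment of windows. There were 4.77 distinct windows per gene of the family within 50 kb. Within 10 kb there were 1.68 per gene and medians of 1 for ligands and 1 for receptors, and within 100 kb there were 7.71 per gene and medians of 6 and 12.5. Counting a window only for the nearest start site left 2.23 per gene and a receptor median of 1. Without chromosome 4, an alternative chosen after seeing the data, 3.41 windows per gene and a receptor median of 3 were found, and 3 of the 13 remaining receptors had a promoter window (23.1%, beside 25.0% of all 20). Members with a promoter window ranged from 9 to 13 of 31 over the other promoter distances, start sites and overlap rules, and were 8 of 22 without chromosome 4 (36.4%) and 8 of 27 without chromosomes 7, 8, 9 and X (29.6%), beside 32.3% of all 31. Within the central 200 bp of each window, the AP-1 word was in 7.43% of member windows (6.66% of all), the RUNX word in 5.41% (4.94%), the STAT word in 6.08% (4.96%) and the GC box in 16.2% (16.1%). Over 1 kb from start sites the GC box was in 18.8% (11.5%) and the Ets word in 0 windows of the family (0.799% of all such windows). No paired analysis was possible because all wells form 1 group and the list holds no value per well. The lack of scores and counts per window limits every count to presence or absence in the list.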
